A study of Mus musculus with 2 samples.

Results

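The 9 genes described here, of 28692 counted genes, make up the fetal *Lin28b* and *Igf2bp* program: *Lin28b*, *Igf2bp1*, *Igf2bp2*, *Igf2bp3*, *Hmga1*, *Hmga2*, *Arid3a*, *Igf2* and *H19*. They were chosen by name, for their place in the fetal state of blood-forming cells, with earlier results of these data known. All 9 are listed once in the files. Their RNA was followed in 2 droplet libraries, FL001 and FL002, of wild type CD1 mouse fetal liver cells. Livers were taken at E13.5, cells carrying TER-119 were depleted, and Sca-1+ cKit+ hematopoietic stem and progenitor cells (HSPCs) were sorted and placed on plates coated with the Notch ligand DL4 and the adhesion molecule VCAM-1. Both libraries carry the same label, and each stands alone with n = 1. Cells were taken straight after the sort or after culture, and the paper states that cells of several times were pooled. The sources used here do not say which times a library holds, so no culture day was assigned. Differences between the gates described below therefore cannot be told apart from differences of culture time.

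Lin28b is an RNA-binding protein of the fetus. It binds the precursors of the let-7 microRNAs and stops them from maturing, and mature let-7 in turn lowers the mRNAs of *Lin28b* itself, of *Hmga2*, of *Arid3a* and of the *Igf2bp* genes. In the mouse, fetal HSPCs have high *Lin28b* and low mature let-7, adult ones the reverse, and *Lin28b* favours fetal kinds of lymphocytes. The Igf2bp proteins bind and stabilise mRNAs, *Igf2* and *H19* among those they were found on. *Hmga1* and *Hmga2* encode chromatin proteins that bend AT-rich DNA, and *Hmga2* is linked to self-renewal of fetal stem cells. *Igf2*, a fetal growth factor, and *H19*, a long noncoding RNA, are imprinted neighbours that share enhancers, with *Igf2* read from the paternal and *H19* from the maternal copy.

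Because let-7 is reported to act on several of these genes, its sequence and its matches in their transcripts are shown first. Of 11 mature let-7 and miR-98 names in RefSeq (GRCm38.p6), 10 share the seed, bases 2 to 8 counted from the 5′ end, set here in capitals. These 4 members of the family differ outside it.
let-7a-5p: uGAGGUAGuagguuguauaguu
let-7d-5p: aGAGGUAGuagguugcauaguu
let-7g-5p: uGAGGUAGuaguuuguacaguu
miR-98-5p: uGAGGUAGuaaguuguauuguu

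The seed was matched against the longest annotated 3′ UTR of every coding gene (GENCODE M21, GRCm38), on the transcript's own strand only. The motifs were CTACCTC, the 7-base match to the seed, TACCTCA, the match to bases 2 to 7 followed by an A, and CTACCTCA, which holds both and was counted once, as an 8-base match. Of 20726 coding genes with a 3′ UTR, 3088 (14.9%) held at least 1 match and 636 (3.07%) an 8-base match. All 8 coding genes of the program held a match, but several of them are reported let-7 targets, so this is a description only. *Hmga2* had 7 in 3014 bases, and only 0.0241% of genes, *Hmga2* among them, had as many or more. *Lin28b* had 5 in 4445 bases, *Igf2bp1* 5 in 6337, *Arid3a* 4 in 3082 and *Igf2bp2* 2 in 1784, while *Igf2bp3*, *Hmga1* and *Igf2* each had 1. These 3′ UTRs are long: the median over all genes was 964 bases, and a longer one has more room for a match. The lines below show an 8-base match, in capitals, for each of the 6 genes that had one, to show that the same 8 letters recur in unlike surroundings.
Hmga2, chr10:120364224-120364231, minus strand: ccgacattcaatttCTACCTCAgcat
Lin28b, chr10:45381022-45381029, minus strand: cccgggcgggaagtCTACCTCAtgca
Igf2bp1, chr11:95961778-95961785, minus strand: ctgtgcgaagtaaaCTACCTCAaggt
Igf2bp2, chr16:22059473-22059480, minus strand: cacacaaataaaagCTACCTCAggtg
Igf2bp3, chr6:49086787-49086794, minus strand: gcatttttactcaaCTACCTCAggta
Arid3a, chr10:79953910-79953917, plus strand: aggcaagtttctttCTACCTCAggtc

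A match is a description of letters and not a measured site, and the libraries, made from polyadenylated RNA, hold no mature microRNA level. *H19* has no coding sequence and was not searched. It is the host of a microRNA of its own, miR-675, whose mature arms lie inside the gene on the minus strand. They are shown because *H19* is the member of the program that stood highest in the T-cell gates against the progenitor gate, and their seeds, in capitals, are not that of let-7.
miR-675-5p, chr7:142577112-142577133: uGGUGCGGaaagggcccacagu
miR-675-3p, chr7:142577078-142577099: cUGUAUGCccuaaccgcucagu

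FL001 kept 1788 cells (median 7722 UMIs, range 1559 to 27025) and FL002 kept 4100 (median 4752.5 UMIs, range 1510 to 17589). A unique molecular identifier (UMI) marks 1 captured RNA molecule. A cell entered a gate by its UMIs of stage genes. The progenitor gate needed at least 2 UMIs of *Lmo2* and *Mef2c* together, factors of early progenitors, with at most 1 of *Cd3g*, a subunit of the T-cell receptor complex. The early gate needed at most 2 UMIs of *Cd3g* and at most 1 of *Lmo2* and *Mef2c*. The Cd3g gate needed at least 3 UMIs of *Cd3g* and none of *Il2ra*, the interleukin-2 receptor chain of CD25, and the Il2ra gate at least 1 of *Il2ra*. The committed gate needed at least 2 of *Ptcra*, *Lef1* and *Bcl11b* together, genes of T-lineage commitment. In that order the gates held 428, 381, 327, 738 and 451 cells in FL001 and 724, 1134, 873, 1668 and 501 in FL002, and 539 and 802 cells stood in more than 1 gate. The Il2ra gate shared 275 and 291 cells with the committed gate and 75 and 276 with the early gate, so values of gates are not independent. CPM, the unit of level used throughout, is the number of UMIs that a gene had in the cells of a gate per 1000000 UMIs of that gate. The sort marker *Kit* stood at 48.4 to 72.1 CPM in the gates of FL001 and 41.4 to 69.9 CPM in FL002, and *Ly6a*, which encodes Sca-1, at 4.25 to 12.8 and 6.59 to 9.71 CPM.

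The progenitor gate held many cells with myeloid RNA. At least 3 UMIs of 8 neutrophil or monocyte genes stood in 69.6% of its cells in FL001 and 51.9% in FL002, in 40.9% and 22.4% of the early gate, and in 1.55% and 1.20% of the committed gate. The summed level of these genes was 2277 and 1528 CPM in the progenitor gate, 3622 and 1072 CPM in the early gate and 30.2 and 79.8 CPM in the committed gate. In FL001 the early gate thus held the highest level. Values with these cells left out of the progenitor gate are given below, together for all members.

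Levels carry 95% exact Poisson intervals, and shares of cells carry 95% exact binomial ones, both for counting error only. With n = 1 per group, replicate error is unknown and nothing was tested. A gene was called lower or higher where the ratio of 2 gates, with 5 CPM added to both, passed 2-fold and the mean of the gates was at least 5 CPM. CPM counts RNA ends and is compared between gates and not between genes.

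The program came apart along the gates. Between the progenitor and the committed gate, *Hmga2* and *Igf2bp2* were lower and *Igf2* and *H19* higher in both libraries, and *Lin28b*, *Igf2bp1*, *Igf2bp3*, *Hmga1* and *Arid3a* did not pass 2-fold in either. So 2 of 9 members were lower in each library, where 4.87% of 8982 genes in FL001 and 3.94% of 8939 in FL002 were called lower, and 2 of 9 were higher, where 5.34% and 5.15% were called higher. The median log2 ratio over the 9 members was -0.50 in FL001 and -0.14 in FL002 with 5 CPM added to both gates, beside -0.05 and -0.01 over all genes tested.

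**Figure D1:**
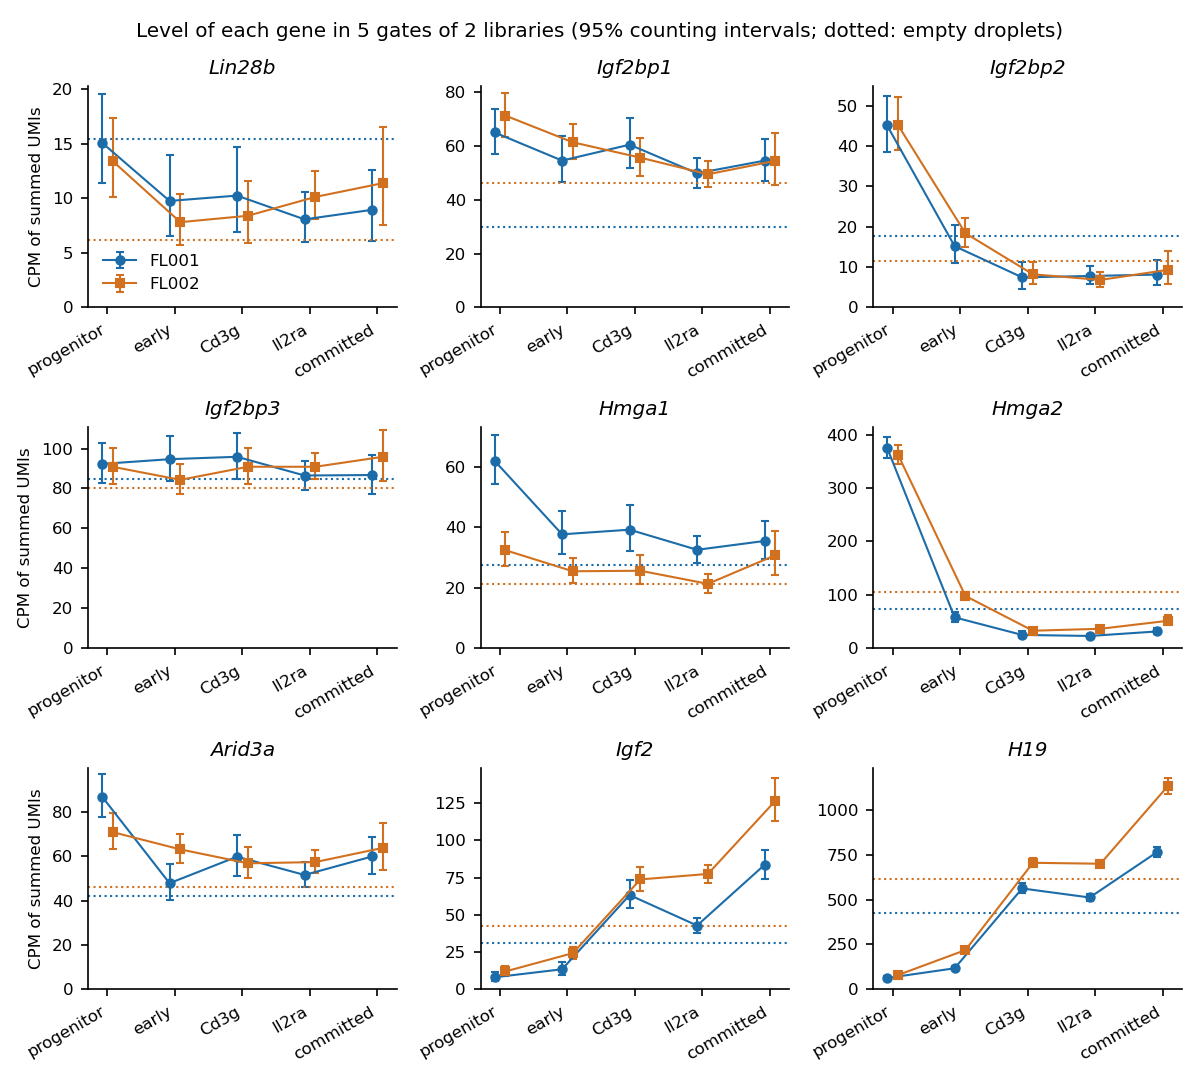
Level of each of the 9 genes in the 5 gates, in CPM on an axis that starts at 0, with 1 line per library and 95% exact Poisson intervals. Dotted lines give the level in barcodes with 1 to 100 UMIs, and *Hmga2* runs from 375 and 363 CPM in the progenitor gate to 31.6 and 51.5 in the committed gate while *H19* runs from 63.2 and 79.6 to 765 and 1133.

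*Lin28b*, the gene that gives the program its name, was rare in every gate. FL001 held 56 UMIs of it in the progenitor gate, 29 in the early, 29 in the Cd3g, 52 in the Il2ra and 32 in the committed gate. These are levels of 15.1, 9.77, 10.3, 8.08 and 8.95 CPM. The level in FL002 was 13.4, 7.82, 8.41, 10.1 and 11.4 CPM, from 57, 46, 37, 85 and 27 UMIs. The progenitor gate held the highest value in both libraries. The committed gate was 0.592 times the progenitor gate in FL001 (0.371 to 0.931) and 0.850 times in FL002 (0.517 to 1.37), and the interval includes no change in FL002. With myeloid cells left out of the progenitor gate the log2 ratios were -0.50 in FL001 and -0.82 in FL002, in place of -0.76 and -0.23, so FL002 then had the lower ratio. Barcodes with 1 to 100 UMIs, which stand for free RNA, held *Lin28b* at 15.4 CPM in FL001 and 6.23 CPM in FL002, so in FL001 no gate stood above free RNA. *Lin28a*, the paralog with the same action on let-7, had 0 UMIs in every gate and in those barcodes.

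*Igf2bp1* and *Igf2bp3*, the most fetal of the mRNA-binding Igf2bp family, were found in every gate, *Igf2bp3* nearly level and *Igf2bp1* somewhat lower after the progenitor gate. *Igf2bp3* stood at 92.3, 94.7, 95.9, 86.5 and 86.7 CPM from the progenitor to the committed gate of FL001, and at 90.8, 84.3, 90.9, 90.9 and 95.9 CPM in FL002. The committed gate was 0.940 times the progenitor gate in FL001 (95% interval 0.803 to 1.10) and 1.06 times in FL002 (0.892 to 1.25). *Igf2bp1* ran from 65.0 to 54.6 CPM in FL001 and from 71.3 to 54.5 CPM in FL002. The lowest *Igf2bp1* gate was the Il2ra gate in both, at 49.8 and 49.5 CPM. It was 0.766 times the progenitor gate in FL001 (0.646 to 0.910) and 0.694 times in FL002 (0.597 to 0.807). The committed gate held *Igf2bp1* at 0.839 times (0.691 to 1.02) and 0.764 times (0.617 to 0.942) the progenitor gate. For both genes the gates lay within a narrow range beside the changes of *Hmga2* and *H19*. Free RNA was as rich in *Igf2bp3* as the cells were, at 84.9 and 80.1 CPM, and each gate stood between 1.02 and 1.20 times that level.

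*Igf2bp2*, the member of the family that adult tissues also use, behaved otherwise. It stood at 45.1 CPM in the progenitor gate of FL001 (95% interval 38.5 to 52.4), 15.2 in the early, 7.43 in the Cd3g, 7.76 in the Il2ra and 8.11 in the committed gate (5.43 to 11.7). FL002 held 45.2 (39.0 to 52.1), 18.4, 8.18, 6.80 and 9.29 CPM (5.82 to 14.1). Most of the difference lay between the progenitor and the early gate, and the 3 T-cell gates could not be ordered beyond counting error. Free RNA held *Igf2bp2* at 17.6 CPM in FL001 (10.1 to 28.6) and 11.6 CPM in FL002 (6.16 to 19.8). The 3 T-cell gates of both libraries, and the early gate of FL001, did not stand above it. The committed gate was 5.55-fold lower than the progenitor gate in FL001 (3.73 to 8.55) and 4.86-fold lower in FL002 (3.12 to 7.94). The early gate was 2.97-fold lower (2.13 to 4.23) and 2.46-fold lower (1.93 to 3.15).

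*Hmga2* showed the widest fall among the members. Its level was 375 CPM in the progenitor gate of FL001 (356 to 395, from 1390 UMIs), 57.9 in the early, 25.1 in the Cd3g, 23.1 in the Il2ra and 31.6 in the committed gate. FL002 held 363 CPM (345 to 381, from 1541 UMIs), 97.9, 32.9, 36.6 and 51.5. The committed gate was 11.9-fold lower than the progenitor gate in FL001 (9.79 to 14.5) and 7.04-fold lower in FL002 (5.85 to 8.54). The early gate already stood 6.47-fold (5.52 to 7.63) and 3.70-fold (3.36 to 4.08) below it. Only 0.301% of genes tested in FL001 and 0.414% in FL002 had a lower log2 ratio of committed to progenitor, with 5 CPM added to both gates. In both libraries the committed gate was above the Cd3g and Il2ra gates. It was 1.37 times the Il2ra gate in FL001 (1.06 to 1.76) and 1.41 times in FL002 (1.13 to 1.74). Against the Cd3g gate it was 1.26 times in FL001 (0.927 to 1.72), which includes no change, and 1.56 times in FL002 (1.219 to 2.003). All 3 gates were below free RNA, at 72.7 and 105 CPM.

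The shares of cells fell with the level. After each cell was thinned to 1500 UMIs, *Hmga2* was found in 33.9% of progenitor, 9.45% of early and 2.66% of committed cells of FL001, and in 38.5%, 12.8% and 5.59% in FL002. Without thinning it was found in 73.6% and 68.9% of progenitor cells and in 13.7% and 13.2% of committed cells. The level was uneven among progenitors: 23.4% of them in FL001 and 15.6% in FL002 held 5 UMIs or more, and the highest cells held 41 and 15. *Igf2bp2* was found in 5.61% and 8.01% of thinned progenitor cells and in 0.887% and 0.798% of committed ones.

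*Hmga1* and *Arid3a* did not pass 2-fold, and in FL002 the ratio of both included no change. *Hmga1* stood at 62.1 CPM (54.3 to 70.6) in the progenitor gate of FL001 and at 35.5 in the committed gate, 1.75-fold lower (1.40 to 2.19). In FL002 the same gates held 32.5 CPM (27.3 to 38.4) and 30.8, 1.05-fold lower (0.788 to 1.42). The progenitor gates themselves differed, with FL001 1.91 times FL002 (1.54 to 2.38). *Arid3a*, a DNA-binding factor of the fetal B-cell program, was 1.45-fold lower in the committed gate of FL001 (1.22 to 1.73) and 1.11-fold lower in FL002 (0.911 to 1.36), from 86.9 to 59.9 and from 70.8 to 63.8 CPM. With myeloid cells left out of the progenitor gate the log2 ratios were -0.35 in FL001 and 0.01 in FL002 for *Hmga1*, and -0.11 and -0.06 for *Arid3a*. The relative *Arid3b*, also named as a let-7 target, stood at 8.91 and 10.1 CPM in the progenitor and committed gates of FL001 and at 6.59 and 13.9 in FL002. *Arid3c* had 0 or 1 UMI in any gate.

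*H19* and *Igf2* were higher in every T-cell gate than in the progenitor gate. *H19* stood at 63.2 CPM (55.3 to 71.8) in the progenitor gate of FL001, 117 in the early, 562 in the Cd3g, 512 in the Il2ra and 765 in the committed gate (737 to 794). FL002 held 79.6 CPM (71.3 to 88.5), 219, 705, 699.7 and 1133 (1091 to 1177). The committed gate was 12.1 times the progenitor gate in FL001 (10.6 to 13.9) and 14.2 times in FL002 (12.7 to 16). *Igf2* stood at 8.10, 13.5, 63.3, 42.9 and 83.7 CPM in FL001 and at 12, 24.3, 73.8, 77.5 and 127 CPM in FL002. Its committed gate was 10.3 times the progenitor gate (7.09 to 15.6) and 10.6 times (7.82 to 14.5). The committed gate was the highest for both genes in both libraries.

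*H19* was found in 10.0% of thinned progenitor cells and 47.9% of thinned committed cells of FL001, and in 12.6% and 59.9% in FL002. *Igf2* was found in 1.64% and 7.76%, and in 2.49% and 14.6%. In the committed gate the median cell held 3 UMIs of *H19* in both libraries, and 23.9% of cells in FL001 and 20.2% in FL002 held 10 or more, and the highest held 43 and 33. After thinning, the variance of *H19* over cells was 2.77 to 3.43 times its mean in the 3 T-cell gates of FL001 and 2.83 to 3.31 times in FL002. A count that differed between cells by sampling alone has a ratio of 1.

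**Figure D2:**
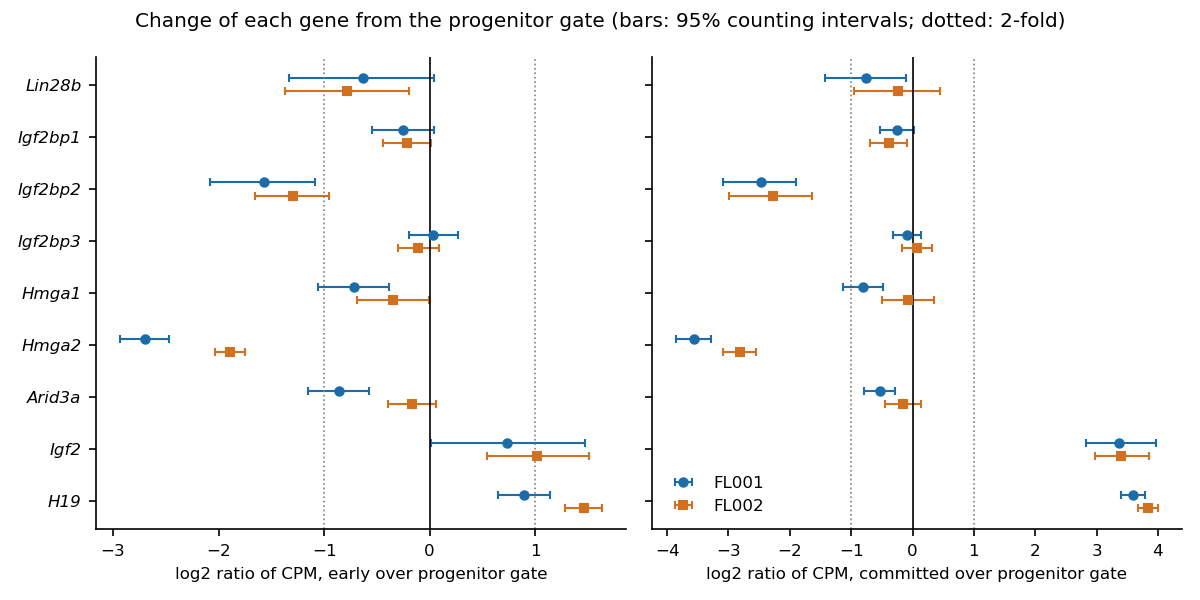
Log2 ratio of the committed, and of the early, gate to the progenitor gate for the 9 genes in each library, with 95% intervals from counting and dotted lines at 2-fold. *Igf2* and *H19* lie to the right of 0 and *Hmga2* and *Igf2bp2* to the left in the committed gate of both libraries.

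*H19* lies at chr7:142575529-142578143 and *Igf2* 72623 bases away, at chr7:142650766-142666816 (GRCm38, GENCODE M21), both on the minus strand. Their RNAs kept a similar proportion over the gates, though not within the progenitor gate. The files held 7.80 to 11.9 UMIs of *H19* per UMI of *Igf2* over the 5 gates of FL001 and 6.63 to 9.55 over those of FL002, beside 13.8 and 14.4 in free RNA. In the progenitor gate of FL001 this rests on 30 UMIs of *Igf2*. There, cells with a UMI of the stem-cell factors *Hlf* or *Mecom* held 103 UMIs of *H19* and 23 of *Igf2*. Cells with neither held 131 and 7. The antisense gene *Igf2os* had at most 5 UMIs in any gate. Whether the counting used strand is not given in the sources used here. Of the other members, *Hmga2*, *Igf2bp1*, *Igf2bp3* and *Hmga1* overlap another annotated gene, so some of their UMIs could have been split or set aside.

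Cells with *H19* were also more often cells with *Igf2*. Among thinned committed cells of FL002, *Igf2* was found in 20% of those with *H19* (15.6 to 24.98) and 6.47% of those without (3.49 to 10.8). In FL001 the shares were 10.2% (6.49 to 15.0) and 5.53% (2.98 to 9.27), and these intervals overlap. In the Cd3g gate they were 14.2% (8.47 to 21.7) and 4.83% (2.34 to 8.70) in FL001, and 15.0% (11.6 to 18.99) and 4.11% (2.53 to 6.27) in FL002. A pair of genes that were lower together did not do this: among thinned progenitors *Igf2bp2* was found in 4.83% of cells with *Hmga2* and 6.01% without in FL001, and in 8.24% and 7.87% in FL002, with overlapping intervals.

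Finer steps of the gate genes were read next. They sort cells by UMI counts and are not times. They hold cells of unlike depth, with medians of 5260 to 10136 UMIs in FL001. The steps within the progenitor and early gates also hold the myeloid cells. Cells were split by *Lmo2* and *Mef2c* UMIs (7 or more, 4 to 6, 2 to 3) and, below 2, by *Cd3g* UMIs (0, 1 to 2, 3 to 5, 6 to 10, 11 or more). *Hmga2* in FL001 ran through 482, 443, 234, 72.4, 32.0, 19.7, 17.4 and 23.3 CPM, and in FL002 through 468, 408, 309.9, 122, 53.6, 31.3, 28.1 and 24.9 CPM. It was thus lower already across the steps within the progenitor gate, and cells without *Cd3g* stood below each of those steps, at 72.4 and 122 CPM. *H19* ran through 60.9, 83.0, 49.3, 79.3, 185, 324, 542 and 610.1 CPM in FL001 and 75.9, 68.7, 87.7, 149.6, 348, 646, 819.9 and 809.5 CPM in FL002. It stood below 90 CPM throughout the progenitor steps and climbed with *Cd3g*. In FL002 its last step was no higher than the one before.

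*Igf2bp2* did not order the progenitor steps, with 43.8, 46.4 and 45.1 CPM in FL001 and 31.6, 62.8 and 36.1 in FL002, and then stood at 21.5 and 22.7 CPM in cells without *Cd3g* and at 3.76 and 10.2 in cells with 1 to 2 UMIs of it. *Igf2* stood at 11.5 and 17.0 CPM in cells without *Cd3g* and at 58.2 and 79.5 CPM in cells with 11 or more, with its peak in FL002 at 3 to 5 UMIs, 104 CPM. The steps were set with values known and share the same cells as the gates, so they describe the same molecules at a finer grain.

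**Figure D3:**
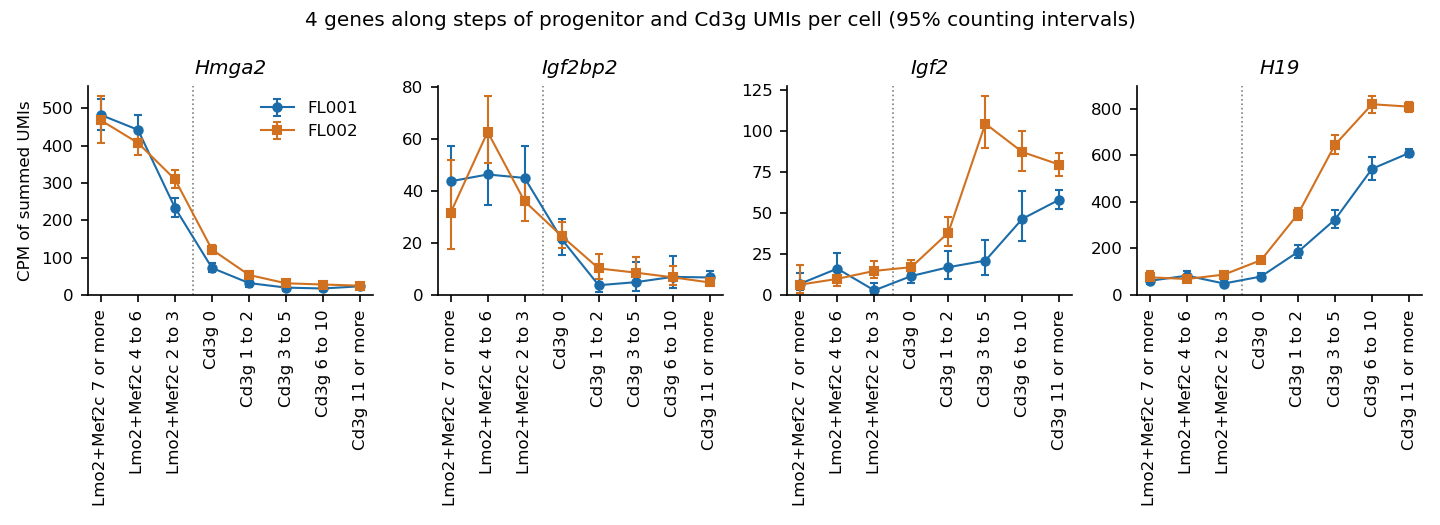
Level of *Hmga2*, *Igf2bp2*, *Igf2* and *H19* in CPM, on an axis that starts at 0, over 8 steps, from cells with 7 or more UMIs of *Lmo2* and *Mef2c* to cells with 11 or more of *Cd3g*, with 1 line per library and 95% exact Poisson intervals. *Hmga2* falls from 482 and 468 CPM to 23.3 and 24.9, and *H19* goes from 60.9 and 75.9 CPM to 610.1 and 809.5.

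Between the progenitor and the early gate, 2 of 9 members were lower in each library, *Hmga2* and *Igf2bp2*, where 1.66% of genes in FL001 and 1.1% in FL002 were called lower. None was higher in FL001 and 1 in FL002, *H19* at 2.75 times, where 1.66% and 1.39% of genes were called higher. With myeloid cells left out of the progenitor gate, *H19* was no longer called higher in FL002 and *Igf2bp2* no longer lower there, which left *Hmga2* as the 1 member called in the early gate of FL002. Between the early and the Cd3g gate, *Hmga2* was lower and *Igf2* and *H19* higher in both libraries. There 1.45% and 0.837% of genes were called lower and 1.86% and 1.13% higher. *Igf2bp2* was not called at this step. Without the added 5 CPM its Cd3g gate was 2.04-fold below the early gate in FL001 (1.19 to 3.61) and 2.24-fold in FL002 (1.53 to 3.37).

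Within the Il2ra and Cd3g gates, commitment went with more of the imprinted pair, and also with more *Hmga2*. Cells of the Il2ra gate that were also in the committed gate held *H19* at 769 CPM against 380.3 in those that were not in FL001, and at 1178 against 609 in FL002. For *Igf2* these were 75.7 against 26.1 and 143 against 65.1 CPM. In the Cd3g gate the committed cells held *H19* at 772 against 372 CPM and 1053 against 605. *Hmga2* stood at 34.2 against 16.9 CPM in the Cd3g gate of FL001 and 60.2 against 25.1 in FL002. In the Il2ra gate it stood at 30.3 against 19.5 and 45.6 against 34.9 CPM. These *Hmga2* intervals overlapped in the Il2ra gate of both libraries and did not in the Cd3g gate. In the early gate, cells without *Tcf7*, the factor that opens the T-cell program, held *Hmga2* at 123 CPM in FL001 and 179 in FL002, and cells with it at 14.6 and 28.7. *Igf2bp2* split the same way, 28.6 against 6.18 and 29.2 against 9.14 CPM. *H19* did not split alike in both libraries, with 126 against 111 CPM in FL001 and 149 against 278 in FL002. In FL001 the early cells without *Tcf7* were shallower, with a median of 6001 against 9172 UMIs, so missed detection can place a cell there. Early cells of FL001 with at least 3 myeloid UMIs also held more *Hmga2*, 81.4 against 36.6 CPM. The *Tcf7* and myeloid splits were not separated.

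Cells with myeloid RNA in the progenitor gate were read apart. At least 3 UMIs of myeloid genes set them, and in FL001 they were deeper (median 8650.5 against 6580.5 UMIs). Of 131 progenitors of FL001 with *Hlf* or *Mecom*, stem-cell factors, 32 had fewer than 3 myeloid UMIs. Leaving the myeloid cells out thus also left out most of those cells of FL001. Progenitor cells with at least 3 UMIs of the neutrophil or monocyte genes held *Hmga2* at 445 CPM in FL001 and 442 in FL002, the others at 172 and 248. With the myeloid cells left out of the progenitor gate only, *Hmga2* was still lower in the committed gate, with log2 ratios of -2.44 and -2.27 in place of -3.57 and -2.82. *Igf2* and *H19* were higher, with 2.50 and 2.39 in place of 3.37 and 3.40, and 3.23 and 3.25 in place of 3.60 and 3.83. *Igf2bp2* stood at 47.9 and 48.1 CPM in the myeloid cells and at 37.0 and 40.9 in the others, with overlapping intervals. Its log2 ratios were -2.19 and -2.14 without them, in place of -2.47 and -2.28. Those of *Igf2bp1* were 0.05 and -0.26 in place of -0.25 and -0.39, and those of *Igf2bp3* 0.06 and 0.20 in place of -0.09 and 0.08.

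The early gate held myeloid cells as well. With them left out of the progenitor gate only, the log2 ratio of early to progenitor was -0.13 and 0.01 for *Igf2*, and 0.53 and 0.87 for *H19*. With them left out of both gates, *H19* stood at 81.3 CPM in the progenitor and 156 in the early gate of FL001, and at 119 and 248 in FL002. *Igf2* stood at 14.8 (8.08 to 24.8) and 19.3 CPM (13.0 to 27.5) in FL001 and at 24.2 (17.5 to 32.7) and 30.4 CPM (25.5 to 36.1) in FL002, with overlapping intervals. *Hmga2* stood at 172 and 36.6 CPM in FL001 and at 248 and 66.7 in FL002. So between these cells *Hmga2* was lower and *H19* higher in the early gate of both libraries.

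Among the other progenitors, several members stood higher in cells with stem-cell genes. In cells with a UMI of *Hlf* or *Mecom*, stem-cell factors, 32 cells in FL001 and 83 in FL002, *Hmga2* stood at 372 and 409.9 CPM, and in the 98 and 265 cells without at 119 and 204. *Igf2bp2* stood at 65.3 and 67.0 against 29.4 and 33.8 CPM. In FL001 these *Igf2bp2* levels came from 13 UMIs (34.8 to 112) and 22 UMIs (18.4 to 44.5), with overlapping intervals. *Igf2bp1* stood at 105 and 96.4 against 38.8 and 56.6 CPM. *Igf2* stood at 35.1 and 58.9 against 9.36 and 14.7 CPM. Its FL001 level in cells with *Hlf* or *Mecom* rests on only 7 UMIs (14.1 to 72.4). So *Igf2*, whose highest gate was the committed one, was also higher in these cells than in their neighbours, in FL001 on few molecules. *H19* stood at 171 against 57.5 CPM in FL001 but 134 against 115 in FL002. *Igf2bp3* did not follow, with 80.3 and 93.8 against 84.2 and 80.8 CPM. These sets were drawn after values were seen.

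**Figure D4:**
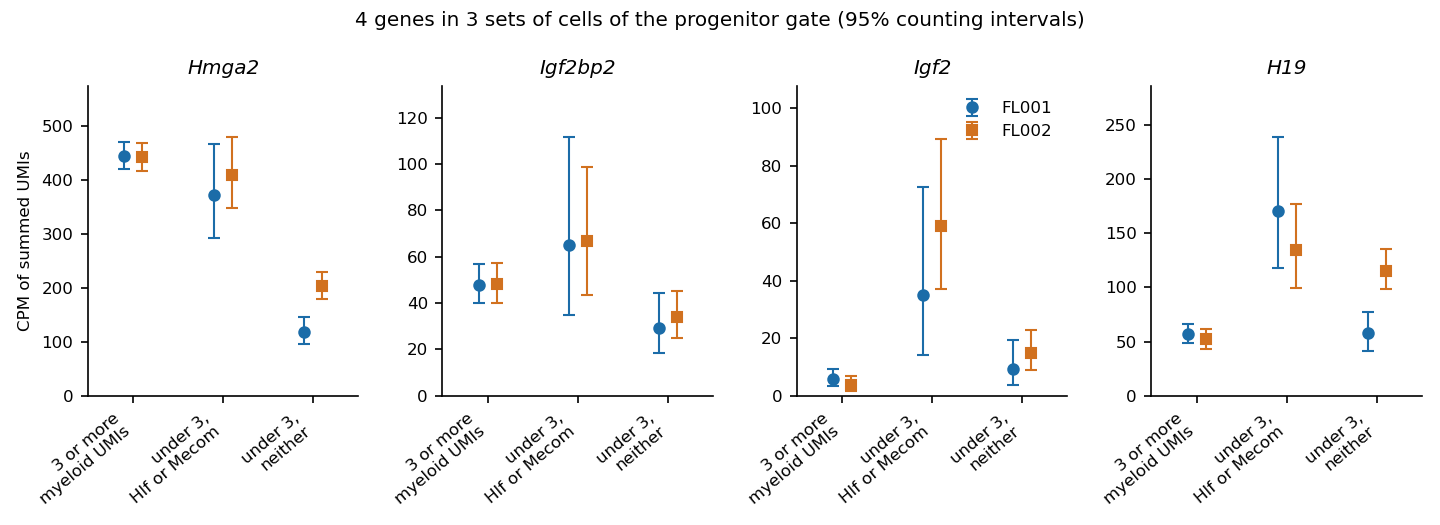
Levels of *Hmga2*, *Igf2bp2*, *Igf2* and *H19* in CPM in 3 sets of progenitor-gate cells, those with at least 3 UMIs of neutrophil or monocyte genes, and the rest with and without *Hlf* or *Mecom*, for each library, with 95% exact Poisson intervals. *Hmga2* stands at 445 and 442 CPM in the myeloid set, 372 and 409.9 in the set with *Hlf* or *Mecom* and 119 and 204 in the set without. In FL001 the myeloid set also holds cells with *Hlf* or *Mecom*.

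Beside the members, the genes of their pathways were counted in lists. Of 16 genes that make or degrade let-7, 13 were above the minimum level in each library. None was called lower or higher between the progenitor and committed gates in both libraries, and 1 was called higher in FL001 alone. Of all genes tested, 4.87% and 3.94% were called lower and 5.34% and 5.15% higher, so this says little about the list. *Dicer1*, which cuts the let-7 precursor, stood at 38.6 and 46.2 CPM in the progenitor and committed gates of FL001 and at 40.01 and 42.6 in FL002. *Zcchc11*, which adds uridine to the precursor that Lin28 holds, stood at 57.8 and 44.8 CPM and at 54.8 and 62.9. *Trim71*, a partner and target of the axis, had at most 5 UMIs in any gate.

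Of 25 reported let-7 targets outside the members, 2 were lower and 1 higher in both libraries. *Ccnd1*, a cyclin of the G1 phase, went from 121 to 6.44 CPM in FL001 and from 118 to 4.64 CPM in FL002. *Mycn*, a transcription factor of growing cells, went from 75.3 to 10.1 and from 66.4 to 12.2 CPM. *Tgfbr1*, a TGF-beta receptor chain, went up, from 18.1 to 60.4 and from 17.7 to 67.1 CPM. The share of the list called is to be read beside the shares of all genes called lower and higher above. Among genes outside the program with 3 or more let-7 matches, 54 in FL001 and 55 in FL002, the median log2 ratio of committed to progenitor was 0.01 and 0.09, beside -0.05 and -0.02 in 7332 and 7309 genes with no match. Called lower were 1.85% and 1.82% of the former, beside 4.98% and 4.12% of the latter, and called higher 5.56% and 10.9%, beside 5.32% and 4.99%. With so few genes in the first group, these shares rest on a handful of genes. Within the program, *Hmga2*, with 7 matches, had the lowest ratio and was called lower. *Lin28b* and *Igf2bp1*, with 5 each, and *Arid3a*, with 4, were not called. *Igf2bp2*, with 2, was called lower. Of the genes with 1 match, *Igf2* was called higher, and *Igf2bp3* and *Hmga1* were not called. The part of let-7 in these values was not tested.

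**Figure D5:**
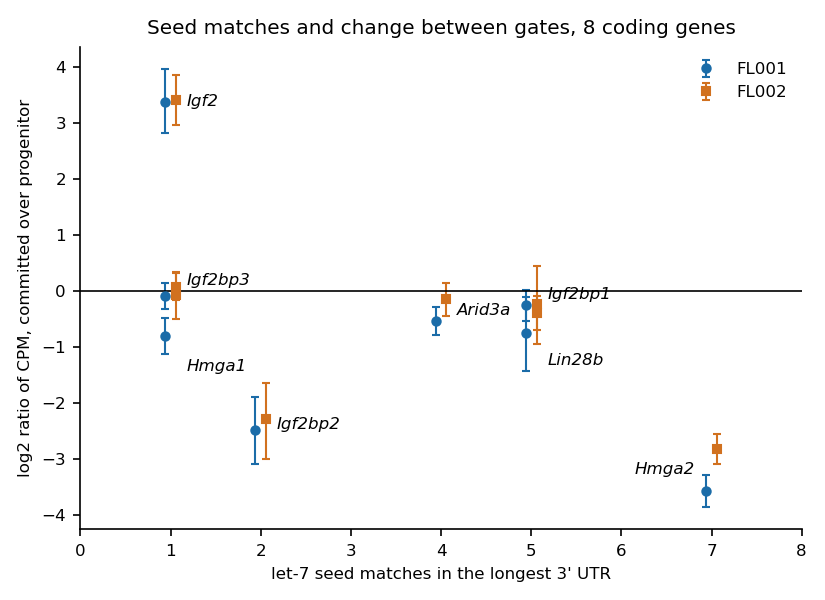
Log2 ratio of CPM of the committed to the progenitor gate against the number of let-7 seed matches in the longest 3′ UTR, for the 8 coding genes of the program in each library, with 95% intervals from counting. *Hmga2*, with 7 matches, lies at -3.57 and -2.82, *Igf2*, with 1, at 3.37 and 3.40, and *Igf2bp3*, also with 1, at -0.09 and 0.08.

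Of 14 genes of IGF signalling, 6 were above the minimum level in each library, and 1 was lower and 1 higher in both. These counts too are to be read beside the shares of all genes called lower and higher above. *Grb10*, an imprinted adaptor that dampens the receptor, went from 18.6 to 1.40 CPM and from 18.4 to 1.69. *Igfbp7*, a binding protein of the family, went from 8.91 to 58.8 and from 16 to 105 CPM. *Igf1r*, the receptor through which *Igf2* signals, stood at 40.2 and 36.9 CPM in FL001 and at 30.4 and 68.8 in FL002, past 2-fold in FL002 only. *Igf2r*, which clears Igf2 from the surface, stood at 5.40 and 13.4 CPM and at 10.8 and 11.4.

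Of 14 other imprinted genes, 8 were above the minimum level in each library. In both libraries 5 were called lower and none higher, where 4.87% and 3.94% of all genes tested were called lower. The remaining 9 were not called in both, and some of them were below the minimum level. *Dlk1*, a Notch-like surface protein, went from 116 to 29.1 CPM in FL001 and from 83.8 to 38.0 in FL002. *Meg3*, a noncoding RNA of the same cluster, went from 70.7 to 4.48 and from 28.9 to 4.64 CPM. *Cdkn1c*, an inhibitor of the cell cycle, went from 34.3 to 10.1 and from 40.2 to 10.6 CPM, and *Ndn* from 24.0 to 0.560 and from 28.9 to 0.845 CPM. *Grb10* is the fifth. Without the myeloid cells 4 of them remained lower in both libraries, as *Dlk1* no longer passed 2-fold in FL002. In progenitors with few myeloid UMIs, *Meg3* stood at 221 CPM with *Hlf* or *Mecom* and 49.5 without in FL001, and at 99.1 and 15.4 in FL002, the same side as *Hmga2* and *Igf2*. None of 10 cycling genes was called in both libraries. *Top2a*, a topoisomerase of dividing cells, stood at 364 and 277 CPM in the progenitor and committed gates of FL001 and at 357 and 335 in FL002.

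Free RNA, from broken cells, was read beside the members. Progenitor cells held *H19* at 14.8% and 12.9% of its level in barcodes with 1 to 100 UMIs and *Igf2* at 26.2% and 28.1%, while *Cd3e*, a T-cell gene, stood at 2.77% and 5.57% of it. How much of the progenitor level of *H19* and *Igf2* was free RNA was not tested. The committed gate held *H19* at 1.79 and 1.84 times free RNA and *Hmga2* at 0.435 and 0.491 times.

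Markers of other cells were looked at because fetal liver also expresses *Igf2*, *H19* and *Dlk1* in hepatocytes and stroma. *Alb*, the defining hepatocyte gene, had 0 or 1 UMI per gate in FL001 and 0 in FL002, and 6 and 4 of 10 hepatocyte genes were at 0 in every gate. *Afp* stood at 1.96 to 11.4 and 1.69 to 7.48 CPM, and *Trf*, which other cells also make, went from 13.2 to 61.6 and from 12.5 to 50.2 CPM between the progenitor and the committed gate. Of 8 stroma genes 5 were at 0 in every gate. Erythroid genes summed to 311, 722, 10.97, 185 and 13.4 CPM over the gates of FL001 and to between 0.845 and 12.2 CPM over those of FL002. Of the erythroid genes, 4 of 10 were called lower in the committed gate of FL001, and none was above the minimum level in FL002. Of the stroma genes, *Dlk1* was lower in both libraries and 1 was higher in FL002 only. Megakaryocyte, stem-cell and neutrophil or monocyte lists each had members lower in both libraries, 3 of 5, 3 of 5 and 7 of 8. Of all genes tested, 4.87% in FL001 and 3.94% in FL002 were called lower. The part of these cells in the values of the members was not tested.

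The libraries gave the same calls between the progenitor and the committed gate. No member differed past 2-fold between FL001 and FL002 in the progenitor gate. Only 0.552% of genes did, so this says little about the members. Some ratios of FL002 to FL001 lay beyond counting error, and others included no change. *Hmga1* was at 0.523 (0.421 to 0.649) in the progenitor gate. In the early gate *H19* was at 1.87 (1.66 to 2.11) and *Hmga2* at 1.69 (1.42 to 2.02). *Hmga2*, *Igf2*, *H19* and *Igf2bp2* kept their direction from the progenitor to the committed gate in both. FL002 had more *H19* and *Igf2* in its T-cell gates, 1133 and 127 CPM in the committed gate against 765 and 83.7, and also more *Hmga2* there, 51.5 against 31.6. The libraries shared 10 cell barcodes among those kept.

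Genes whose level followed a member most closely were read over the 10 gate-by-library values, among 5485 genes. For *Lin28b* they were *Vps13a* (Pearson's r 0.921), *Ss18* (0.919), *Parp1* (0.914), *Actr5* (0.903) and *Ttc5* (0.900). For *Igf2bp3* they were *Tceb3* (0.936), *Fxr1* (0.888), *Sfswap* (0.879), *Iws1* (0.844) and *Ints7* (0.805). The 10 values share cells, libraries and depth, and with so little change in either gene the likeness is a description only.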

How the data were processed

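The authors prepared single-cell libraries with 10X Chromium and deposited unfiltered gene-by-barcode matrices of raw UMI counts per gene, 16320118 UMIs in FL001 and 22651783 in FL002. Submitters' processing notes name mm9, and the CellRanger version and annotation are not given in the sources used here. Of 28692 gene identifiers, 28416 matched GENCODE M21 (GRCm38), from which coordinates and 3′ UTRs come. No coordinate was converted.

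Barcodes with at least 1500 UMIs, 500 genes and at most 10% mitochondrial UMIs were kept, and no doublets were removed. Raw counts were summed per gate and library and scaled to CPM, with exact Poisson intervals for levels, exact binomial intervals for shares and exact conditional intervals for ratios. These intervals cover counting error only, and shares were computed again with each cell thinned to 1500 UMIs. Each library was read alone, with no p-value. The 2-fold call rule was tested on simulated counts with counting error only. Changes were set well past 2-fold, in genes well above the level of *Lin28b*. This does not cover changes near 2-fold or rare genes. The other steps were not tested in this way. Python 3.11.15, numpy 2.4.6, scipy 1.17.1, pandas 2.3.3 and scanpy 1.11.5 (for Scrublet) were used.

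Named are the 9 members, the gate genes, the paralogs *Lin28a*, *Arid3b* and *Arid3c*, and from each list up to 4 genes each way with a mean of at least 20 CPM past 2-fold alike in both libraries. The 5 genes most correlated with *Lin28b* and *Igf2bp3* in log2(CPM + 5) are also named. Other list genes, and those likened to *Hmga2* and *H19*, were named after their values were seen. The members and lists were chosen with earlier results of these data known. Alternatives were gate and cell filters, scaling, pseudocount, thinning, a Scrublet filter and, added after seeing the data, leaving out myeloid progenitors.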

Additional observations from a re-analysis of the deposited data

Results flagged for a closer look

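*Igf2bp3* was the member whose direction between the progenitor and the committed gate differed between the libraries: the log2 ratio of committed to progenitor was -0.0897 in FL001 and 0.0774 in FL002. It is listed because the libraries moved in opposite directions, with 1 library on each side. The difference was not tested, and both intervals of the ratio, 0.803 to 1.10 and 0.892 to 1.25, include no change.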

How the results depend on the processing

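Of 117 alternative values for the counts of called members, 106 kept within 1.5 times of the main count and 11 did not. Of 484 for log2 ratios, 75 moved by more than the counting error. The 484 include ratios of the Cd3g to the early gate with myeloid progenitors left out, which could not move. No sign changed among 170 values whose main ratio was past 2-fold, and 25 signs changed among 314 whose main ratio was not. Thinning each cell to 1500 UMIs before gating left 112 and 204 progenitor, 993 and 2308 early and 156 and 204 committed cells in FL001 and FL002. It gave 4 members lower in the committed gate in each library, *Igf2bp2*, *Hmga1* and *Hmga2* with *Arid3a* in FL001 and *Igf2bp1* in FL002, where 15.3% and 11.02% of all genes were called lower. It gave 3 lower in the early gate, *Igf2bp2* and *Hmga2* with *Igf2* in FL001 and *Hmga1* in FL002, where 7.71% and 4.40% of all genes were called lower. The log2 ratio of *Igf2* in the early gate of FL001 was -1.71 in place of 0.73. Thinning gave 1 higher in the committed gate of FL001, *H19*, where 15.5% of all genes were called higher. In the early gate it gave 1 higher in FL001, *H19*, and 0 in FL002, where 8.43% and 4.50% of all genes were called higher. Between the progenitor gates of the libraries 1 member differed, *Lin28b*, where 17.3% of all genes did, so this says little about *Lin28b*. A pseudocount of 20 CPM left 1 member lower in the early gate of each library, *Hmga2*, where 0.484% and 0.420% of all genes were called lower. Placing each cell in 1 gate, or leaving out the myeloid progenitors, left 1 lower in the early gate of FL002, *Hmga2*. There 0.976% and 1.20% of all genes were called lower. Without the myeloid cells 0 members were higher in that gate, where 0.849% of all genes were called higher. The cause was not tested.

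Over all alternatives the log2 ratio of committed to progenitor ran from -4.07 to -2.44 in FL001 and from -4.83 to -2.27 in FL002 for *Hmga2*, from -2.94 to -2.19 and -3.64 to -2.12 for *Igf2bp2*, from 0.88 to 3.41 and 2.21 to 3.62 for *Igf2*, and from 3.22 to 3.67 and 2.71 to 3.90 for *H19*. Thinned *Lin28b* and *Hmga2* in FL001 gave no committed-gate ratio, as 0 UMIs were left. No paired analysis was possible because each group is 1 library and no result comes from a test. Depth limits the rare members: *Lin28b* had 27 to 85 UMIs per gate, and *Igf2bp2* 21 in the Cd3g gate of FL001.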

Other observations

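The members that changed most had close company over the 10 gate-by-library values, chosen here after values were seen and given as a description, since these values share cells and libraries. Among those with *Hmga2* were *Ssbp2* (Pearson's r 0.992), *Rangrf* (0.983), *Sepw1* (0.982) and *Tspan6* (0.977). With *H19* went *Ctla4* (0.996), *Socs2* (0.995), *Rabgap1l* (0.994), *Cd3e* (0.992) and *Igf2* (0.990). *Ctla4*, an inhibitory receptor of T cells, stood at 2.97 and 119 CPM in FL001 and at 4.47 and 162 in FL002, and *Socs2*, a brake on growth-hormone and cytokine signals, at 23.7 and 137 and at 24.2 and 165.

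Of 5 mast cell or basophil genes, 1 was above the minimum level. This gene, *Cpa3*, a protease of mast cells and of some early T progenitors, went from 20.8 to 114 CPM in FL001 and from 40.2 to 96.7 in FL002. *Cd79b*, a B-cell receptor subunit, went the other way, from 54.0 to 13.4 and from 46.8 to 10.1 CPM.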
